A study of Mus musculus with 9 samples.

Results

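RNA abundance in macrophages expressing GFP-TTP-AA was compared with that in macrophages expressing GFP-TTP, to ask which functions separate the phosphosite mutant of tristetraprolin (TTP) from the wild-type form. The libraries were taken by their labelled group, 3 of GFP-TTP-AA and 3 of GFP-TTP, which made 6 of the 9 libraries of the series. The other 3 came from cells expressing GFP alone and are given only as the level without TTP. All cells descended from TTP-deficient mouse bone marrow-derived macrophages that had been immortalized with hcmyc and hRasG12V, sorted for CD11b and F4/80 and transduced with a tetracycline-inducible vector. The GFP-TTP vector encoded wild-type TTP fused to GFP, and in GFP-TTP-AA the serines at both MK2 sites were alanines (S52A and S178A). Every group received 1 µg/ml doxycycline for 6 h, to induce the transgene, and 1 µg/ml of bacterial lipopolysaccharide (LPS) for 1 h. None of the 9 libraries was without LPS. Each construct was carried by a transduced line of its own.

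TTP, encoded by Zfp36, binds AU-rich elements in the 3′UTR of cytokine and other inflammatory mRNAs and recruits deadenylases that start their decay. When LPS activates its Toll-like receptor, the kinases p38 and MK2 phosphorylate TTP, which is then held less active. TTP-AA lacks the main serines for this control and is regarded as a constantly active form. Type I interferon, made by macrophages after LPS, acts through STAT and IRF factors on a promoter element named the interferon-stimulated response element (ISRE) and induces antiviral genes.

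Levels are normalized fitted counts, that is, the deposited value of a gene divided by a library factor. The deposited values are means fitted by the study's model, which multiplies a library factor, a term for the replicate number (the library date of the study's model) and a term for the form. They hold no scatter between replicates, and the 3 libraries of a form stand in the same ratio to those of the other form by construction. Whether the libraries of both forms overlap follows from the fitted terms and says nothing of replicate agreement. No test or standard deviation across libraries could therefore be given, and a difference below says nothing on how far replicates agreed. The error given after ± is the standard error that counting alone would leave at these levels. It leaves out scatter between replicates, so it is a lower limit for differences that the model did not shrink. A difference is always GFP-TTP-AA minus GFP-TTP on the log2 scale, and a gene was counted as past the fold at 1 or more in size, which is 2-fold. The sums of fitted counts ran from 21482954 to 37866269 in GFP-TTP and from 25504519 to 102613526 in GFP-TTP-AA. Defining macrophage markers were present, with a summed level from 490350 to 907190 over all 9 libraries and 8 of 9 genes at a mean level of 50 or more. Of the markers of other cell types, only Lck (T cells), Flt3 (dendritic cells) and 1 neutrophil gene, S100a8, reached that level, and no B cell, NK cell, mast cell, fibroblast, epithelial or endothelial marker did. S100a8 had 183, 131 and 115 in GFP-TTP and 303, 218 and 190 in GFP-TTP-AA, a difference of 0.73, while Lck was at -0.15 and Flt3 at -0.19, and their part in the results was not tested.

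Among 11126 genes with a mean level of at least 50, 232 were higher in GFP-TTP-AA past the fold (2.09%) and 76 were lower (0.683%). At 0.58 or more in size, which is 1.5-fold, 581 were higher (5.22%) and 390 lower (3.51%). These shares are the background of each count of list members below. The longer tail lay on the higher side, with 58 genes at a difference of at least 2 and 7 at -2 or below. The median difference of all genes was -0.04, the 5th percentile -0.52 and the 95th 0.60. Protein-coding genes made up 223 of the higher and 73 of the lower genes. The mean level was taken over both forms, so a gene could reach the minimum through the form where it was high. Lox (11.6 in GFP-TTP, 391 in GFP-TTP-AA) did so on the higher side and Mcam (116 and 29.1) on the lower side. Others named below did so too. Among them were Cdc42bpa, Decr1, Serpine2, Zdhhc2, Tmem98, Rnf217, Irf7, Cxcl14, Kdm5d, Ctsh and Siglece on the higher side. On the lower side were F2rl3, Myom3 and Timp1. How far this shaped the counts was not tested.

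Levels in GFP give a reference without TTP. The 232 higher genes had a median level in GFP-TTP that differed from GFP by -0.86 and in GFP-TTP-AA by 0.78. For the 76 lower genes the medians were 0.56 in GFP-TTP and -0.78 in GFP-TTP-AA. Each set was chosen by the difference between the forms, so its medians lie at least 1 apart by that choice. Both differences from GFP share the GFP libraries and are set side by side only, and over all genes they had medians of 0.01 and -0.02.

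**Figure D1:**
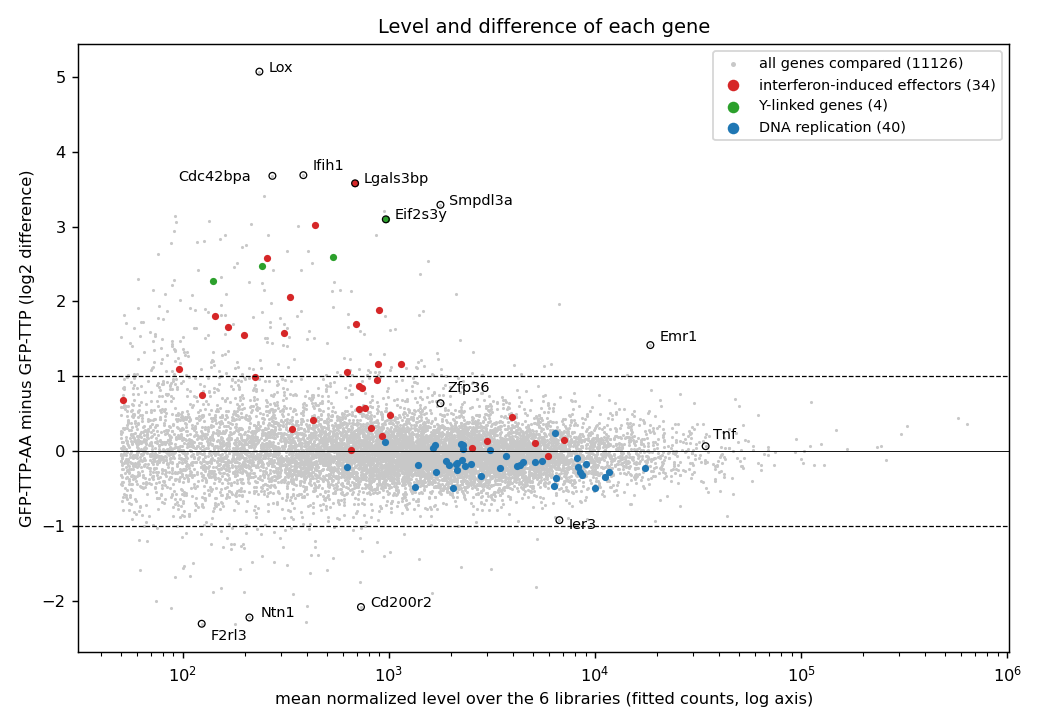
Level and difference of each of 11126 genes. The horizontal axis is the mean normalized level over the 6 libraries (fitted counts, log axis) and the vertical axis GFP-TTP-AA minus GFP-TTP (log2). Grey points are all genes, colors mark 3 lists, open circles named genes, and dashed lines the 2-fold bounds. The interferon-induced effectors and the Y-linked genes reach far above the upper bound, the DNA replication genes lie within both bounds, and Lox stands alone at 5.07.

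Promoter sequence was looked at because interferon-induced genes were among those with large differences. The ISRE letters GAAANNGAAA were searched on both strands in RefSeq promoters of GRCm38.p6, from 250 bases before to 50 bases after the start of each gene. Of 32851 promoters, 3.44% held them. The windows below come from genes that were higher in GFP-TTP-AA past the fold and show the letters (in capitals, TTTCNNTTTC being the other strand) in the antiviral genes Oas3, Rsad2 and Ifit3, the RNA sensor genes Ifih1 and Ddx58 and the GTPase genes Gbp2 and Gbp3. They are printed 5′ to 3′ on the strand of the gene.
Oas3, chr5:120777715-120777744, minus strand: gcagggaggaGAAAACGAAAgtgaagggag
Rsad2, chr12:26456553-26456582, minus strand: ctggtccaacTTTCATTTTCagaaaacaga
Ifit3, chr19:34583363-34583392, plus strand: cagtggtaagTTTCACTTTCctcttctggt
Ifih1, chr2:62646206-62646235, minus strand: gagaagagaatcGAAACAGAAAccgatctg
Ddx58, chr4:40239804-40239833, minus strand: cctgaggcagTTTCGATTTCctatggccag
Gbp2, chr3:142620594-142620623, plus strand: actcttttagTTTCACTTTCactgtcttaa
Gbp3, chr3:142559989-142560018, plus strand: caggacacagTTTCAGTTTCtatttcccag

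All 7 measured guanylate-binding protein and IRG GTPase genes held the letters in their promoter, including Gbp5, Irgm1, Irgm2 and Igtp, which were not past the fold. So did 13 of the 27 interferon-induced effectors with a promoter in the table, but 34 effectors were measured and fewer than 80% of them matched, so the share of that list is void. For the genes past the fold the check was void for the same reason, with promoters for 169 of 232 higher and 52 of 76 lower genes. No window was found for other genes past the fold, among them Lgals3bp, Oasl1, Cmpk2, Sp100, Usp18 and Irf7. These lacked the letters or had no promoter among those searched. A match is a description of letters, not of a bound site.

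The interferon-induced effectors, which block viral replication or modify host proteins, were the list of 10 or more genes with the highest median. Of 34 measured members 14 were higher in GFP-TTP-AA past the fold and none lower, and 20 were higher and none lower past 1.5-fold. Over all genes the shares were 2.09% and 0.683% past the fold and 5.22% and 3.51% past 1.5-fold. Their median difference was 0.86, against -0.04 over all genes, and Trim25 alone, at -0.07, lay below the all-gene median. Relative to GFP the list had a median of -0.52 in GFP-TTP and 0.21 in GFP-TTP-AA.

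Lgals3bp, a secreted glycoprotein that binds galectins (chromosome 11, 118392751 to 118402092), had levels of 112, 99.1 and 107 in GFP-TTP replicates 1 to 3 and of 1333, 1184 and 1279 in GFP-TTP-AA. The GFP libraries had 784, 698 and 751. The fitted levels were thus above GFP in GFP-TTP-AA and below it in GFP-TTP, and the forms differed by 3.58 ± 0.09, or 11.9-fold.

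Oasl1, an oligoadenylate synthetase-like protein that represses translation of Irf7 mRNA, had 60.2, 61.7 and 166 in GFP-TTP and 491, 504 and 1356 in GFP-TTP-AA, a difference of 3.03 ± 0.09. An exon of Oasl1 overlaps Gm13822 on the other strand, and the sources do not say whether reads were counted by strand. Rsad2, viperin, had 223, 218 and 700 in GFP-TTP and 824, 805 and 2584 in GFP-TTP-AA, a difference of 1.88 ± 0.05. In both genes replicate 3 was the highest library of each group.

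Of the oligoadenylate synthetases, which activate RNase L on sensing double-stranded RNA, Oas2 differed by 1.81, Oas3 by 1.70, Oas1g by 1.66 and Oas1a by 0.96. Oas1b, annotated as a polymorphic pseudogene, differed by 0.69 at a mean level of 51.6. These genes are close copies, and reads placed more than once may be split between them. Cmpk2, a nucleotide kinase next to Rsad2, differed by 2.58, Sp100, a nuclear body protein, by 2.06, and Usp18, the protease that removes ISG15, by 1.55. Other members were close to level, among them Bst2 at 0.15, Samhd1 at 0.11, Eif2ak2 (the kinase PKR) at 0.05 and Herc6 at 0.02. Among the IFIT genes, only Ifit3 was past the fold, at 1.10 ± 0.12, while Ifit1 was at 0.42 and Ifit2 at 0.31.

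Cytosolic sensors of nucleic acid differed by gene. Ifih1, the double-stranded RNA sensor MDA5 (chromosome 2, 62595798 to 62646255), had 39, 38.7 and 88.6 in GFP-TTP, 196, 196 and 447 in GFP, and 502, 498 and 1143 in GFP-TTP-AA. Its difference, 3.69 ± 0.12 or 12.9-fold, was the largest after that of Lox. The related RNA helicase genes Ddx58 (RIG-I) and Dhx58 (LGP2) differed by 1.41 and 1.07, and the related genes Ifi204, Ifi203 and Mndal, of the DNA-binding Ifi200 family, by 1.27, 0.60 and 0.42. Aim2, of the same family, was at 0.01, the DNA sensor Mb21d1 (cGAS) at -0.17 and the adaptors Mavs and Tmem173 (STING) at -0.16 and -0.05. Over the 12 measured members 4 were higher past the fold and none lower, beside 2.09% and 0.683% of all genes. The median of the list was 0.27. It was 0.07 with a minimum level of 200 or without genes whose exons overlap another gene, and 0.42 with a minimum of 10.

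Among the transcription factors of the interferon response, differences were mostly smaller. Irf7, which amplifies the type I interferon response, had 23, 24.8 and 41.2 in GFP-TTP and 76.2, 82.4 and 137 in GFP-TTP-AA, a difference of 1.73 ± 0.17, and exons of Phrf1 overlap it on the other strand. Irf7 was the only gene of 16 STAT, JAK and IRF genes past the fold, beside 2.09% higher and 0.683% lower over all genes. With group levels of 28.6 in GFP-TTP and 95 in GFP-TTP-AA, Irf7 reached the minimum level only through GFP-TTP-AA. Irf9 differed by 0.97, Jak2 by 0.68, Irf5 by 0.58 and Stat2 by 0.42, whereas Irf3 was at -0.05, Irf8 at -0.15 and Stat5b at -0.29. The median of the list, 0.18, became -0.15 without genes whose exons overlap another gene and 0.28 without GFP-TTP-AA replicate 2. The interferon gene Ifnb1 itself was at 0.26 and the receptor chain Ifnar1 at 0.73.

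Guanylate-binding proteins and IRG GTPases, which attack the membranes around intracellular pathogens, were all above the all-gene median. Gbp3 differed by 1.80, Gbp2 by 1.65 and Gbp7 by 1.51, and Gbp5, Irgm1, Irgm2 and Igtp by 0.20 to 0.54. Gbp2 had 76.9, 113 and 277 in GFP-TTP and 241, 354 and 869 in GFP-TTP-AA, so that replicate 3 of GFP-TTP lay above replicate 1 of GFP-TTP-AA. The list had a median of 0.54, which became 1.65, the value of Gbp2, when only members at a mean level of 200 or more were counted. Gbp2 (134 in GFP-TTP, 420 in GFP-TTP-AA) and Gbp3 (149 and 520) reached 200 only through GFP-TTP-AA, where they were high.

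The replicate-number term moved with these lists. In each form the levels of replicate 3 minus the mean of replicates 1 and 2 had a median of 0.37 (log2) over the interferon-induced effectors, 0.52 over the nucleic-acid sensors and 0.75 over the guanylate-binding proteins and IRG GTPases, against 0.02 over all genes. Its part in the difference between the forms was not tested, since fitted means give every replicate number the same difference.

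**Figure D2:**
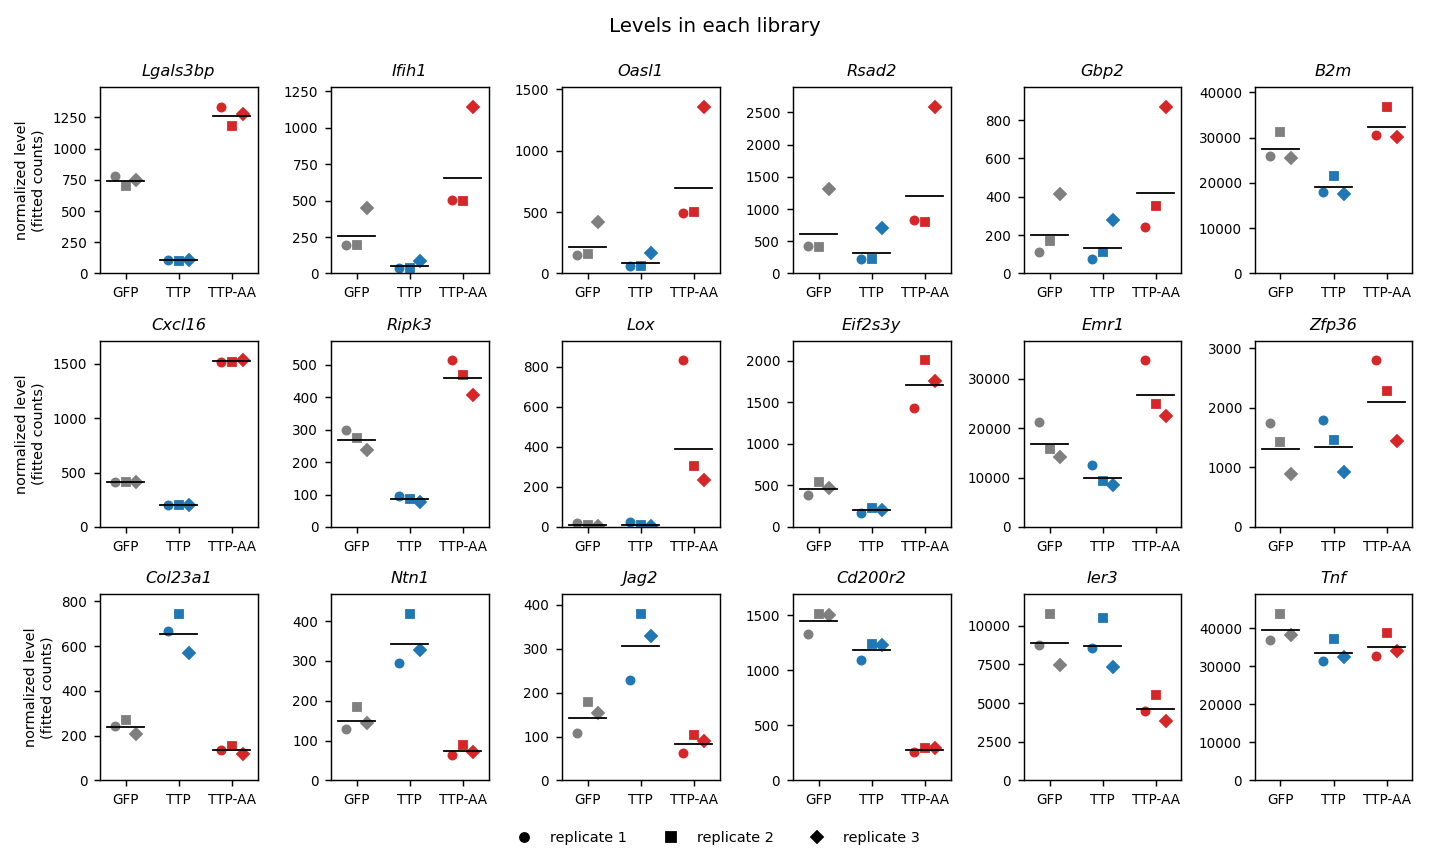
Normalized level (fitted counts, linear axes from 0) of 18 genes in each of the 9 libraries. Circles, squares and diamonds are replicates 1, 2 and 3, and the line is the geometric mean of a group. Lgals3bp, Ifih1 and Cxcl16 are highest in GFP-TTP-AA and lowest in GFP-TTP, Col23a1, Ntn1 and Jag2 are highest in GFP-TTP, Lox is high in GFP-TTP-AA alone, and Tnf overlaps between the groups.

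MHC class I genes, which present peptides to CD8+ T cells, differed by less than 2-fold each. None of 20 measured members was past the fold, beside 2.09% higher and 0.683% lower over all genes. Past 1.5-fold 7 were higher and none lower, beside 5.22% and 3.51% of all genes. The median was 0.33, or 0.19 without genes whose exons overlap another gene. H2-D1 differed by 0.82 and B2m, the light chain of class I molecules, by 0.77. B2m had 18029, 21616 and 17656 in GFP-TTP and 30661, 36777 and 30054 in GFP-TTP-AA. Psmb9 and Psmb8, subunits of the immunoproteasome, differed by 0.71 and 0.65, while the constitutive proteasome list of 32 genes had a median of -0.09 and none past either fold. Class II presentation had 6 measured genes of 14 with a median of 0.60 (0.34 with no minimum level). Led by Ctss (cathepsin S) at 1.02, Cd40 at 0.84 and the invariant chain Cd74 at 0.67, it lacked the class II chains. H2-Aa, H2-Ab1, H2-Eb1, H2-DMa, H2-DMb2, H2-Oa, H2-Ob and Ciita were under the minimum level, so the median says nothing of them.

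Chemokines differed by gene. Cxcl16, a membrane-anchored chemokine and scavenger receptor, had 204, 204 and 206 in GFP-TTP, 414, 415 and 417 in GFP, and 1516, 1517 and 1528 in GFP-TTP-AA. That is a difference of 2.89 ± 0.06, and exons of Zmynd15 overlap the gene on the other strand. Cxcl14 differed by 1.91, Ccl7 by 0.87 and Pf4 by 0.82. The strongly LPS-induced ligands were nearer to level, with Cxcl10 at 0.50, Ccl4 at 0.36, Ccl5 at 0.34, Cxcl2 at 0.19, Ccl3 at 0.05 and Ccl2 at -0.12. In the list of 13, 2 were higher past the fold and none lower, beside 2.09% and 0.683% of all genes. Cxcl14, with 25.3 in GFP-TTP and 94.9 in GFP-TTP-AA, reached the minimum level only through GFP-TTP-AA. The median of the list was 0.41. That median was 0.14 without GFP-TTP-AA replicate 3, 0.23 without GFP-TTP replicate 1 and 0.62 without GFP-TTP replicate 3.

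Of 22 cytokines and growth factors, none was higher past 1.5-fold and 3 were lower, beside 5.22% and 3.51% of all genes. Past 2-fold none was higher and 1 was lower, beside 2.09% and 0.683%. Hbegf, a ligand of the EGF receptor, had 289, 375 and 392 in GFP-TTP and 110, 142 and 149 in GFP-TTP-AA and was lower by 1.40 ± 0.07 on the log2 scale. Osm (oncostatin M) was at -0.69 and Il23a at -0.67, and the highest was Csf3 at 0.58, just under the bound. Receptors for cytokines and chemokines had a median of 0.34 over 28 genes. Among them the death receptor gene Tnfrsf21 differed by 2.76, Ccrl2 by 1.03 and Il10ra by 0.94, and Il13ra1 was the lowest at -0.88.

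Messenger RNAs that the study listed as TTP targets by crosslinking in these cells were examined next. Most were ranked by their crosslinks in the 3′UTR, while Ier3 and Dusp1 were added as selected targets. Actb was on the list, but the study treated it as a negative control, as its 3′UTR has no AU-rich element. Since the study chose the listed genes from cells of the same kind, they are not an independent choice. None of the 27 was past the fold in either direction, 2 were higher and 2 lower past 1.5-fold, and the median was 0.14. These counts lay near the shares over all genes (2.09% and 0.683% past the fold, 5.22% and 3.51% past 1.5-fold). Above the all-gene median lay 20 of the 27. The median of the targets was 0.09 without GFP-TTP-AA replicate 3 or GFP-TTP replicate 1. It was 0.26 without GFP-TTP-AA replicate 1 or GFP-TTP replicate 3. The 7-base motif TATTTAT, a core AU-rich element, was in the 3′UTR of 63.0% of them, against 29.3% of all 9756 compared genes whose 3′UTR had 100 bases or more. The sites below are shown for target genes of the TNF pathway and its feedback, with the motif in capitals, from GENCODE M21 transcripts on GRCm38.
Tnf, chr17:35199707-35199736, minus strand: cagcccccctcTATTTATatttgcacttat
Ier3, chr17:35822481-35822510, plus strand: tgtctaattaaTATTTATgtatttatgtat
Dusp1, chr17:26506158-26506187, minus strand: gagctggtcctTATTTATttaacacccccc

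Tnf, the cytokine that drives inflammation in TTP deficiency, holds 6 copies of the motif. Its levels of 31338, 37100 and 32446 in GFP-TTP and 32817, 38867 and 34009 in GFP-TTP-AA overlapped, with a difference of 0.07 ± 0.01. Ier3, an immediate early gene that restrains NF-kB signaling, had 8552, 10502 and 7328 in GFP-TTP, 8729, 10753 and 7480 in GFP and 4516, 5548 and 3873 in GFP-TTP-AA. It was the lowest of the targets, at -0.92 ± 0.01, and its GFP-TTP and GFP levels were close.

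Dusp1, the phosphatase that switches off p38, had 2421, 1598 and 962 in GFP-TTP and 2375, 1569 and 945 in GFP-TTP-AA, a difference of -0.03 ± 0.03, and an exon of Ergic1 overlaps it on the other strand. Relative to GFP it was at -0.56 in GFP-TTP and -0.58 in GFP-TTP-AA. Plau, a plasminogen activator, was at -0.58 and Lpl, lipoprotein lipase, at -0.57, whereas B2m (0.77) and Tmsb4x, an actin-binding peptide (0.66), were the highest. Tnfaip3, the ubiquitin editor A20, and Mdm2, the ligase of p53, were at 0.34 and 0.35.

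The share of genes with the motif was near that of all genes on both sides of the fold. TATTTAT was in 25.1% of 211 higher and 29.4% of 68 lower genes with such a 3′UTR, beside the 29.3% over all genes. Among the interferon-induced effectors 4 of 34 held it and among the guanylate-binding proteins and IRG GTPases 0 of 7. Median 3′UTR lengths were similar, at 1149 bases for higher, 1107.5 for lower and 1053 for all genes, but the median GC content of transcripts was 48.9% for higher, 54.6% for lower and 50.2% for all genes, and its part was not tested.

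**Figure D3:**
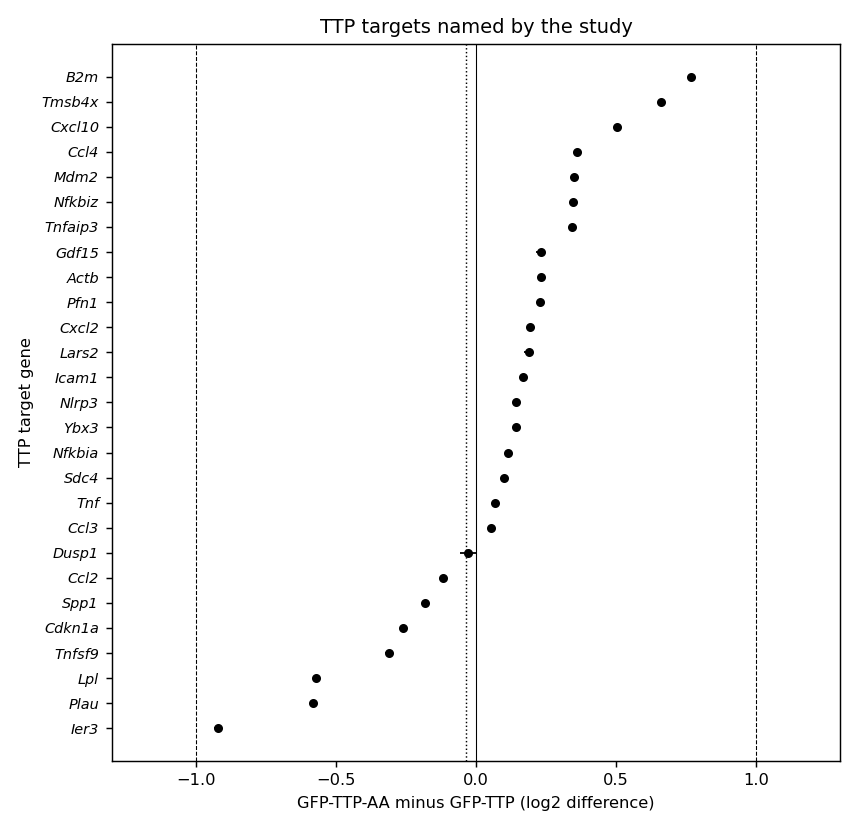
Difference between the forms for 27 TTP targets that the study named. The horizontal axis is GFP-TTP-AA minus GFP-TTP (log2), bars are the counting standard error (often within the point), the dotted line is the median of all genes and dashed lines mark 2-fold. All 27 lie between -0.92 (Ier3) and 0.77 (B2m).

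Zfp36 itself had levels of 1794, 1461 and 921 in GFP-TTP, 1741, 1423 and 894 in GFP and 2796, 2278 and 1437 in GFP-TTP-AA. It was higher in GFP-TTP-AA by 0.64 ± 0.03, and the libraries of both forms overlapped. Reads of the disrupted gene and of the transgene share a row, so this level does not give the amount of transgene, and the GFP level does not check the labels. Zfp36l2, a TTP relative with the same target sequence, was at -0.21, Mapkapk2 (MK2) at 0.23, Mapkapk3 at 0.25 and Mapk14 (p38) at -0.15. No gene of this list of 16 was past the fold, and none of 41 deadenylation and decay genes was, their extremes being Btg1 at 0.67 and Tob1 at -0.60. Over all genes 2.09% were higher and 0.683% lower past the fold, so finding none in lists of these sizes lay near those shares.

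NF-kB components had a median of 0.29 over 18 genes with none past the fold, beside 2.09% higher and 0.683% lower over all genes. The median was 0.17 without GFP-TTP-AA replicate 3 or GFP-TTP replicate 1, 0.44 without GFP-TTP-AA replicate 1 and 0.49 without GFP-TTP replicate 3. Bcl3, a nuclear IkB protein, was the highest at 0.75, followed by the kinase Ikbke at 0.50 and Nfkb1 at 0.49, and Nfkbid was the lowest at -0.38. Nfkbia, the rapidly resynthesized IkB-alpha, was at 0.11 and Rela at 0.28. Feedback inhibitors of inflammation had a median of 0.09 over 28 genes. Socs1, which blocks JAK kinases, had 116, 140 and 143 in GFP-TTP and 330, 397 and 406 in GFP-TTP-AA, a difference of 1.51 ± 0.08, and Irak3, a brake on Toll-like receptors, was at 0.99. The ERK pathway inhibitors Spry2 and Dusp6 were at -0.68 and -0.52. Immediate early genes had a median of -0.01 over 21 genes, with Klf4 the highest at 0.76 and Ier2 at -0.69 next to Ier3.

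Cell death genes showed a few large differences. Ripk3, the kinase that triggers necroptosis, had 95.9, 87.8 and 75.8 in GFP-TTP, 299, 275 and 236 in GFP and 514, 470 and 406 in GFP-TTP-AA, a difference of 2.42 ± 0.10. Its substrate Mlkl was at -0.09. Pycard, the inflammasome adaptor ASC, differed by 1.14, Casp4 by 0.78, Casp1 by 0.52 and Nlrp3 by 0.14. Over 31 death receptor, caspase and inflammasome genes the median was 0.16. Past the fold 2 were higher and none lower, beside 2.09% and 0.683% of all genes. In the BCL2 family of 14 genes none was past the fold, beside the same shares, the extremes being the proapoptotic Bbc3 at 0.86 and Pmaip1 at -0.57.

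The lists of cell growth had medians below that of all genes. Mitosis genes had a median of -0.23 over 36 genes, with Cenpf the lowest at -0.65 and Aurka at -0.56, and 9 of 36 lay above the all-gene median. DNA replication genes had a median of -0.18 over 40 genes, with Rpa1 and Lig1 at -0.49, and 8 of 40 lay above it. No gene of either list was past the fold, beside 2.09% higher and 0.683% lower over all genes. Chaperones had a median of -0.14 over 29 genes, in which the inducible Hspa1a was at 1.34 and the mitochondrial Hspd1 at -0.65. The respiratory chain (median -0.04 over 58), cytosolic ribosomal proteins (-0.08 over 80), glycolysis (-0.09 over 27) and zinc-finger genes (0.01 over 253) lay near the all-gene median, although Hk2 was at -0.71 and Eno2 at -0.91.

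**Figure D4:**
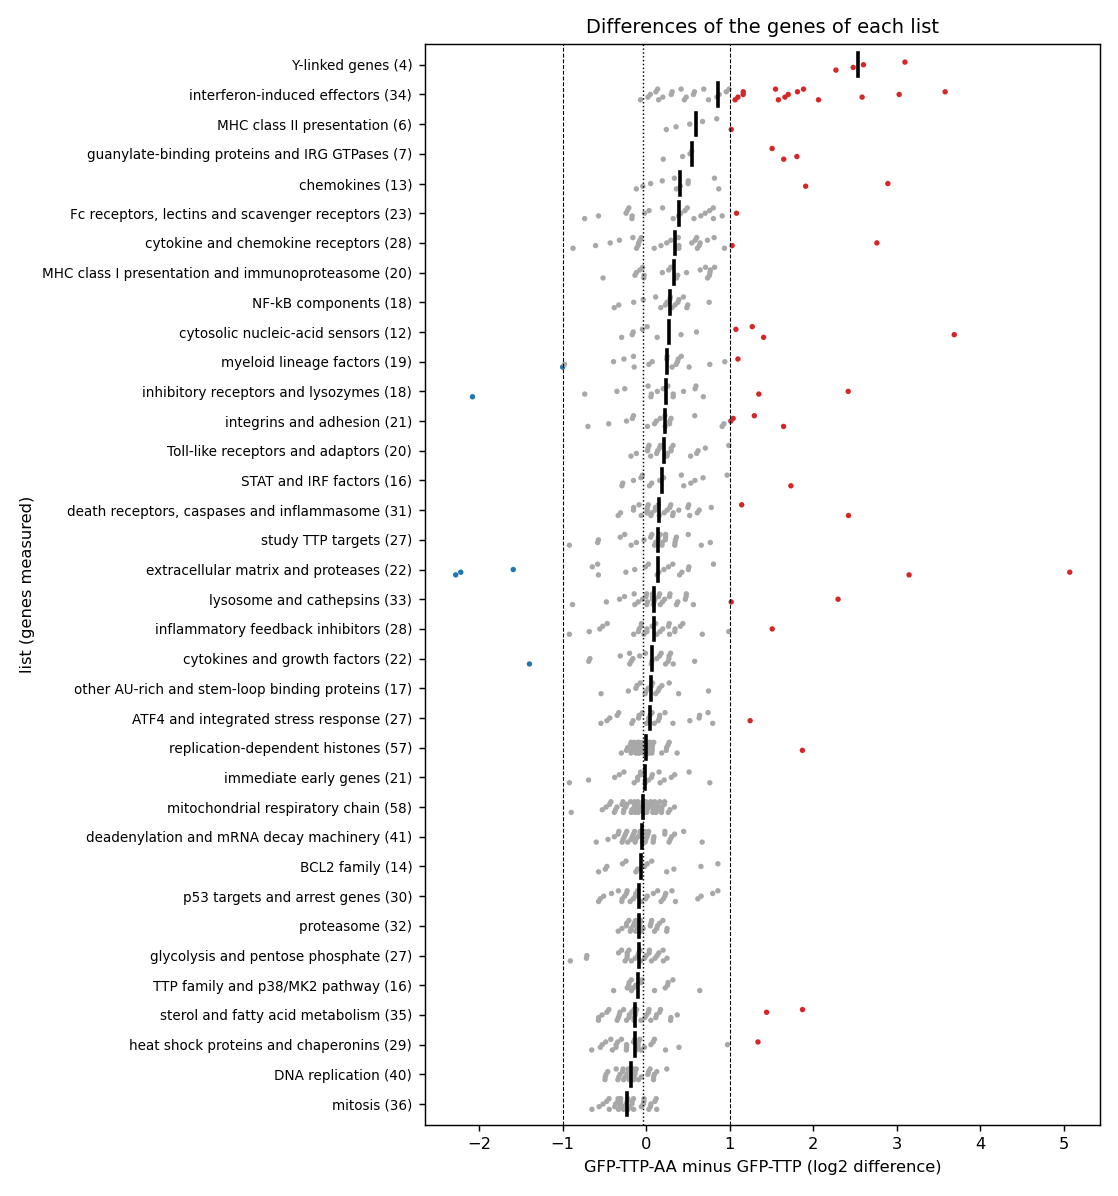
Differences of the genes of 36 lists, sorted by median. Each point is a measured gene, red or blue where past 2-fold, the black bar is the list median, and the dotted line the median of all genes. The Y-linked and interferon lists lie at the top, with medians of 2.54 and 0.86, and the mitosis list lies at the bottom, at -0.23.

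Surface and matrix genes held the widest range in both directions. Lox, which crosslinks collagen and elastin (chromosome 18, 52516067 to 52529867), had the largest difference of all genes. It had 24.8, 9.05 and 7.01 in GFP-TTP, 21.8, 7.99 and 6.17 in GFP and 833, 304 and 236 in GFP-TTP-AA, that is 5.07 ± 0.26 or 33.6-fold. GFP-TTP and GFP were close and GFP-TTP-AA alone was high, unlike the pattern of Ifih1 and Lgals3bp. An antisense gene overlaps an exon of Lox.

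Serpine2, a protease inhibitor, had 20.3, 20.7 and 15.1 in GFP-TTP and 180, 183 and 134 in GFP-TTP-AA, a difference of 3.15 ± 0.21. Timp1, an inhibitor of metalloproteases, was at -1.59, and relative to GFP it was at 2.81 in GFP-TTP and 1.22 in GFP-TTP-AA. Of 22 matrix and protease genes 2 were higher and 3 lower past the fold, beside 2.09% and 0.683% of all genes. Lox, Serpine2 (18.5 in GFP-TTP, 164 in GFP-TTP-AA) and Timp1 (93.2 and 30.9) reached the minimum level only through the form where they were high. The part of this in the counts was not tested. The median of the 22 genes, 0.14, was 0.01 with a minimum level of 200, 0.03 without GFP-TTP replicate 1, 0.08 without GFP-TTP-AA replicate 3 and 0.22 without GFP-TTP replicate 2.

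Most of the 12 lowest genes are named below, some with their levels. F2rl3, a thrombin-activated receptor, had 223, 248 and 147 in GFP-TTP and 45, 50.1 and 29.7 in GFP-TTP-AA, and was lower by 2.30 ± 0.13 on the log2 scale, with GFP (48.9, 54.6 and 32.2) at the level of GFP-TTP-AA. Ntn1, the guidance cue netrin, had 295, 418 and 328 in GFP-TTP and 63.3, 89.6 and 70.3 in GFP-TTP-AA, a difference of -2.22 ± 0.09. Col23a1, a transmembrane collagen, had 666, 744 and 570 in GFP-TTP and 137, 153 and 117 in GFP-TTP-AA, a difference of -2.28 ± 0.07.

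Jag2, a Notch ligand, and Hpse, heparanase, were each at -1.88. Mcam, an adhesion molecule of the immunoglobulin family, had 108, 152 and 95.8 in GFP-TTP and 26.9, 38.1 and 24 in GFP-TTP-AA. Cd200r2, of the family of CD200 receptors, differed in another way, since its levels of 1091, 1236 and 1229 in GFP-TTP were near those of GFP (1329, 1511 and 1498) and only GFP-TTP-AA was low, with 258, 292 and 291. Others among the 12 lowest were Myom3, Tmem132a, A230050P20Rik and Gm5611, the last a processed pseudogene whose reads may belong to its parent gene.

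Receptors and adhesion molecules of macrophages included members well above the fold. Emr1, the F4/80 antigen used in sorting the cells before transduction, had 12612, 9314 and 8415 in GFP-TTP, 21170, 15683 and 14124 in GFP and 33680, 24884 and 22492 in GFP-TTP-AA, a difference of 1.42 ± 0.01. The other macrophage markers differed by 0.07 (Cd68) to 0.80 (Fcgr1), with Csf1r at 0.25 and Itgam (CD11b) at 0.12. In bulk RNA, fewer cells with a transcript and less transcript per cell cannot be told apart.

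Integrin and adhesion genes had 4 of 21 higher past the fold and none lower, beside 2.09% and 0.683% of all genes. The 4 were Itgal (LFA-1 alpha) at 1.64, Sdc3 at 1.29, Selplg at 1.04 and Cd82 at 1.01. The inhibitory receptor genes Pirb and Siglece differed by 2.42 and 1.35, and Trem1, which amplifies inflammation, by 1.08. Ctsh, a lysosomal cathepsin, differed by 2.30 and Ctss by 1.02, while the list of 33 lysosomal genes had a median of 0.09. Of myeloid factors, Id3, an inhibitor of DNA binding, was at 1.10 and Batf3, a dendritic cell factor, at -0.98, and Cebpa lay on the bound in the lower direction.

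Lipid-related genes were among those furthest apart, though the list as a whole was not. Nr1h3, the liver X receptor alpha that senses oxysterols, had 161, 168 and 152 in GFP-TTP and 589, 615 and 558 in GFP-TTP-AA, a difference of 1.87 ± 0.08, and Gm13783 overlaps it on the same strand. Ch25h, the interferon-inducible enzyme that makes an oxysterol, differed by 1.44. Decr1, a mitochondrial reductase for unsaturated fatty acids, had 40.4, 49.3 and 38.1 in GFP-TTP and 431, 526 and 406 in GFP-TTP-AA, or 3.41 ± 0.14. The sterol and fatty acid list had a median of -0.13 over 35 genes. Smpdl3a, a phosphodiesterase, was at 3.29 ± 0.05, and Cdc42bpa, a kinase downstream of Cdc42, at 3.68 ± 0.14 with exons that overlap Coq8a on the other strand. The others of the 12 highest were 2510009E07Rik, Zdhhc2, Tmem98, Rnf217 and Eif2s3y.

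A list of 4 Y-linked genes that male cells express broadly had large differences. Eif2s3y had 167, 234 and 206 in GFP-TTP, 385, 541 and 474 in GFP and 1429, 2004 and 1761 in GFP-TTP-AA, a difference of 3.10 ± 0.06. Ddx3y differed by 2.60, Uty by 2.48 and Kdm5d by 2.27, so all 4 listed genes were higher past the fold, with a median of 2.54. Over all genes 2.09% were higher past the fold. Erdr1, the other compared gene that the annotation places on chromosome Y, named after its value was seen, was at -0.12. Relative to GFP their median was -1.03 in GFP-TTP and 1.51 in GFP-TTP-AA. As the forms were carried by different lines, a difference of the lines and one of the forms cannot be told apart for these or other genes. The medians of the autosomes and the X chromosome ran from -0.17 (chromosome 11) to 0.14 (chromosome 10).

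**Figure D5:**
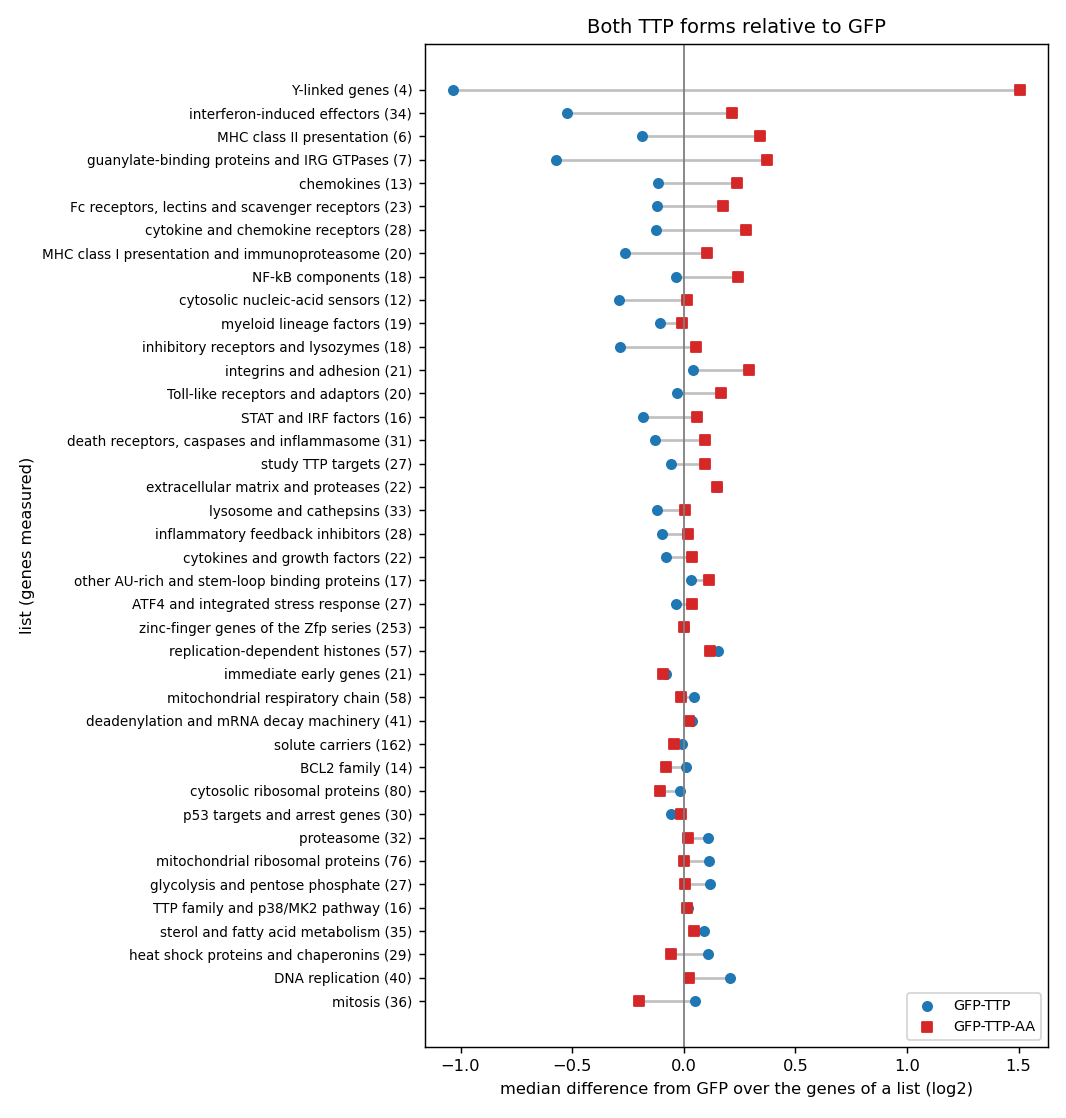
Median difference from GFP of each of 40 lists in GFP-TTP (circles) and GFP-TTP-AA (squares), in log2 units. Both values share the GFP libraries. The circles of the interferon-induced effectors (-0.52), the guanylate-binding proteins and IRG GTPases (-0.57) and the Y-linked genes (-1.03) lie left of 0 and the squares right of it.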

How the data were processed

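RNA depleted of ribosomal RNA was sequenced as 50-base single reads in 9 libraries, 3 per group, with groups and replicate numbers taken from the titles. Per the labels and the study's methods, the authors trimmed reads (Trim Galore), aligned them to GRCm38 with TopHat (up to 2 places per read), counted them per gene of Ensembl release 70 (HTSeq) and fitted DESeq2 1.6.3 with library date and condition. Strand use was not stated in the sources used here.

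The deposited signal, named normalized counts, has 25504 rows (25494 genes). No value was 0, and after centring, 4 singular values of the log2 table were above 0 against 8 for libraries free to vary, so the values are fitted means without scatter. Genes with a mean level under 1 had differences of at most 0.146 in size (median 0.02). Counting alone would leave errors of 1.32 for Zbp1 and 1.78 for Ifitm1, both at such levels. Differences at low levels were thus compressed in the deposited values, though the sources do not say in words that the model shrank fold changes. Another 3 deposited tables of the authors' own comparisons hold log2 fold changes, standard errors, test statistics and p-values, and were not used.

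Each library was divided by its median ratio to the geometric mean (factors 0.61 to 2.84), without a pseudocount. Genes with a mean level of at least 50 in the 6 libraries were compared by group means of log2 levels. The largest counting error was 0.26. Limma and the replicate block planned for measured values could not be applied, as fitted means leave no residual. Named were Zfp36, the 12 largest and 12 smallest differences, macrophage markers, up to 6 members past 2-fold per list (the 2 largest where none was) and all members of some lists. Other examples, and the promoter windows and 3′UTR sites, were chosen after their values were seen. The comparison and the 41 lists were chosen with earlier results of these data known. Positions, biotypes and 3′UTRs came from GENCODE M21 (99.6% of compared genes matched), taking the transcript with the longest coding sequence. Some genes and a list are not reported here. Scripts (Python 3.11.15, numpy 2.4.6, pandas 2.3.3) were tested on simulated data. Library factor, pseudocount, minimum level, fold, gene type, overlapping exons and left-out libraries were varied.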

Additional observations from a re-analysis of the deposited data

How the results depend on the processing

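With a minimum mean level of 200 in place of 50, 119 genes were higher and 44 lower past 2-fold, and at 1.5-fold 581 were higher and 390 lower, as fewer or more genes then qualify. Under the other alternatives the counts ran from 214 to 332 higher and from 63 to 86 lower, and with a single library left out from 235 to 277 and from 75 to 92, with the replicate-number term then unbalanced. Leaving out a replicate number in both forms kept 232 and 76 by construction, which is no sign of stability. Of the lists with at least 5 measured genes, the number whose median lay at least 0.25 from that of all genes was 12, 10 to 16 with a single library left out and 8 to 13 otherwise. The all-gene median was -0.04, and 0.02 under upper-quartile scaling. No paired analysis was possible because the fitted means hold no scatter between replicates, so a replicate block leaves no residual.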
